A study of Homo sapiens with 4 samples.

Results

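The genes of the mitochondrial ribosomal proteins were described in HT29 and HCT116, 2 established colorectal carcinoma cell lines, with and without lipopolysaccharide (LPS), the cell wall component of Gram-negative bacteria. The members were all protein-coding genes whose GENCODE symbol is MRPL or MRPS followed by a digit, with no hyphen. They were 78 of the 61544 genes in the count table, 49 named for the large subunit (MRPL) and 29 for the small subunit (MRPS). The libraries were HT29 kept for 24 h with LPS (1 ug/mL), HT29 control, HCT116 with the same LPS treatment and HCT116 control, with 1 library each. All of the cultures were grown in the same medium, whose supplements included a reagent against mycoplasma. Each line is a single cancer-derived culture and holds no immune or stromal cells, so LPS acted on epithelial-derived cells alone. The study set the lines side by side because their basal level of the glucocorticoid receptor differs.

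Mitochondria carry their own ribosome, which translates the few messenger RNAs of the mitochondrial genome into core subunits of the respiratory chain. Its ribosomal RNAs come from the mitochondrial genome, whereas every one of its proteins is encoded in the nucleus, made in the cytosol and imported. The small subunit holds the messenger RNA and its decoding centre. The large subunit forms the peptide bond and feeds the new chain through its exit tunnel into the inner membrane. Some members have bacterial counterparts of the same number and others occur only in mitochondria.

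The promoters of 5 members are shown because they carry the letter motifs counted below or belong to the member with the lowest LPS ratio. Each is 1 stretch of 300 bases from RefSeq (GRCh38.p14), from 250 bases before the annotated start to 50 after it, written 5' to 3' on the strand of the gene. Capitals mark matches, on either strand, to GCGCATGC (core of the site of NRF1, a regulator of nuclear genes for mitochondria), CCGGAAG (the site of ETS factors such as GABPA) and AAGATGGCG (the site of YY1). MRPL52 was the 1 member whose window held all 3 motifs, MRPL17 held overlapping and separate copies of the NRF1 core, MRPS34 held the ETS letters 3 times, MRPS18A held the ETS and YY1 letters, and MRPS6 held none. MRPL52 lies at chr14:22829637-22829936 on the plus strand, MRPL17 at chr11:6683291-6683590 on the minus strand, MRPS34 at chr16:1773085-1773384 on the minus strand, MRPS18A at chr6:43687742-43688041 on the minus strand and MRPS6 at chr21:34073328-34073627 on the plus strand.
MRPL52: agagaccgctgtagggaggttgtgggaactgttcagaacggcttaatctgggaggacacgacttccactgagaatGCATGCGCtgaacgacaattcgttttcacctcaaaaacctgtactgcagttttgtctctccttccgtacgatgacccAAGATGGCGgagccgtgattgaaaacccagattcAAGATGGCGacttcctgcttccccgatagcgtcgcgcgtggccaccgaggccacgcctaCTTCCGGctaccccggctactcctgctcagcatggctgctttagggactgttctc
MRPL17: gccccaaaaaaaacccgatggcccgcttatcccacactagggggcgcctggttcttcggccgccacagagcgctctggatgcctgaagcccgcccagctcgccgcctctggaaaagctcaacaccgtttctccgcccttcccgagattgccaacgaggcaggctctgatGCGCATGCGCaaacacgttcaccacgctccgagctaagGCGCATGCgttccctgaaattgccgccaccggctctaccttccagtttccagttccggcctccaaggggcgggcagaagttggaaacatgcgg
MRPS34: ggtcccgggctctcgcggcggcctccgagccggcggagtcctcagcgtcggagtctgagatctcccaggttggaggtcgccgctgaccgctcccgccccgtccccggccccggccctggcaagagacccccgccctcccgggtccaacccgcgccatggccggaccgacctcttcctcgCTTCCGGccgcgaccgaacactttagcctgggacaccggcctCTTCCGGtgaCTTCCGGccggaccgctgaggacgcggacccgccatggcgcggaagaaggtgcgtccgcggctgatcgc
MRPS18A: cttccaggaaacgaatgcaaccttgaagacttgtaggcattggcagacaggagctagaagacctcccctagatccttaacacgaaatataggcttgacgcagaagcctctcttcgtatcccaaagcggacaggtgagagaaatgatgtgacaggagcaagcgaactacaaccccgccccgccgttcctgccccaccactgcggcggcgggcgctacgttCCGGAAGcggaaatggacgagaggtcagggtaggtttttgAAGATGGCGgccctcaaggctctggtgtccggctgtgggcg
MRPS6: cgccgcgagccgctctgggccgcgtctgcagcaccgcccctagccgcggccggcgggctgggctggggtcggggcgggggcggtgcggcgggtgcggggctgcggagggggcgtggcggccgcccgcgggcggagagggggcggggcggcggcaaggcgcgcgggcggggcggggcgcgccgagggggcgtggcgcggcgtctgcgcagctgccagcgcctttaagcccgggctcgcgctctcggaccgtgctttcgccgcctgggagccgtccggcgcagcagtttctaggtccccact

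Such matches were frequent in the windows of the members. The table of promoters held 69 of the 78 members. The ETS letters occurred in 29 of these 69 (42.0%), against 10.7% of all 27305 promoters in the table and 2025 of the 10655 promoters of genes tested here. The YY1 letters occurred in 13 members (18.8%), against 1.85% of all promoters and 3.94% of those of tested genes. The NRF1 core was found in 6 members (8.7%), against 3.27% of all promoters and 5.39% of those of tested genes. At least 1 of the 3 was present in 39 members (56.5%), against 14.6% of all promoters and 25.9% of those of tested genes. Large-subunit and small-subunit genes held them in similar shares, with the ETS letters in 40.5% and 44.4% and the YY1 letters in 8 of 42 and 5 of 27. Among neighbouring systems, the ETS letters stood in 32.4% of cytosolic ribosomal protein promoters and 31.2% of those of nuclear respiratory chain subunits, and the NRF1 core in 4.23% and 20.3% of those 2 sets. A match is a run of letters and not a measured binding site.

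Depth was similar across libraries, with total counts of 19105058 to 21268959. Transcripts of the mitochondrial genome took 4.29% and 3.75% of the counts in the HT29 LPS and control libraries and 7.16% and 5.01% in the HCT116 LPS and control libraries. The epithelial markers EPCAM, CDH1, KRT8, KRT18 and KRT19 were found in all 4 libraries. Of the intestinal markers, VIL1 had 3004 and 2637 counts in the HT29 LPS and control libraries but 0 and 4 counts in those of HCT116, LGALS4 was likewise nearly absent from HCT116, and CDX1 had at most 17 counts. CDX2 ran the other way, with 39 and 18 counts in the HT29 LPS and control libraries and 572 and 474 in those of HCT116. PTPRC, CD3E, COL1A2 and DCN, markers of leukocytes and fibroblasts, had at most 2 counts in any library, whereas LYZ and CD14 were present in HT29 and COL1A1 in HCT116. NR3C1, the glucocorticoid receptor gene, had 0 and 1 counts in the HT29 LPS and control libraries, against 560 and 615 counts in those of HCT116.

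Most members were well measured. CPM are counts scaled to a common library total, and for levels also by the trimmed mean of M values (TMM). In each line, and in the tests over all 4 libraries, 73 of the 78 passed the minimum mean of 1 CPM before TMM scaling. They were 47 of the large and 26 of the small subunit. Their median level was 49.5 CPM, against 25.5 CPM over all 14523 genes tested. Together the 78 genes took 0.433% and 0.463% of the counts in the HT29 LPS and control libraries, and 0.394% and 0.406% in those of HCT116.

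The other 5 members were at or near 0, and each shared its exons with another gene or had a copy on an alternate contig. MRPS18B, a small-subunit protein, had 0 counts in all 4 libraries, and its transcript had a copy with 100% identity on an alternate contig of the reference. MRPL53, a large-subunit protein, also had 0 counts in all 4. Of its exon bases 99.4% were shared with other genes, the largest overlap being with a gene on the opposite strand. A count of 0 allows up to 3 counts, or 0.134 to 0.165 CPM in these libraries. MRPL45, which in the assembled ribosome sits at the tunnel exit facing the inner membrane, had 7 and 13 counts in the HT29 LPS and control libraries and 5 and 7 in those of HCT116, and it too had a copy on an alternate contig (99.9% identity). MRPS24 had 9 and 5 counts in the HT29 LPS and control libraries and 9 and 6 in those of HCT116, and shared exons with the readthrough gene URGCP-MRPS24. MRPS5 had 0 and 0 counts in the HT29 LPS and control libraries and 4 and 9 in those of HCT116, and the unnamed gene on the same strand that shared 23.3% of its exon bases had 265 to 387 counts. How the counting treated reads that fit several genes is not given in the sources used here, and its part in these low values was not tested. In all, 41 of the 78 members shared exon bases with another gene and 4 had a copy elsewhere (MRPL23 and MRPS36 besides the 2 named). Since the library kit named in the methods does not mark strand, reads of a member and of an antisense partner cannot be told apart.

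Levels of the members, per kb of the canonical transcript and averaged over the 4 libraries, spanned from 132 CPM per kb for MRPL41 to 4.26 CPM per kb for MRPS17. MRPL41 is a mitochondria-specific protein of the large subunit that was also described as a partner of BCL2. It was followed by MRPL20 (131 CPM per kb), MRPS34 (111), MRPL37 (108) and MRPS12 (107), the last a protein of the decoding centre. MRPS34 shared 31.2% of its exon bases with EME2 on the opposite strand, which had 2357 to 2821 counts, so its level is uncertain. The order of the 5 highest was not the same in every library. MRPL41 had 105 and 131 CPM per kb in the HT29 LPS and control libraries and 143 and 149.8 CPM per kb in those of HCT116, whereas MRPL20 had 161 and 176 CPM per kb in HT29 and 91.8 and 93.7 CPM per kb in HCT116. At the low end stood MRPS17, MRPL38 (5.57 CPM per kb), MRPL2 (5.81), MRPL42 (5.96) and MRPS33 (6.95). Of these, MRPS17 shared 25% of its exon bases, MRPL38 45.1% and MRPL2 35.0% with other genes, so their levels are uncertain. For each, the largest overlap was with a protein-coding gene on the same strand. MRPL42 had 77.2 and 88.3 CPM in the HT29 LPS and control libraries and 99.9 and 106 CPM in those of HCT116, above the members' median of 49.5. Its low place rests on a canonical transcript of 15557 bases, against a members' median of 1224. That of MRPS33 has 4210 bases. With the union of all annotated exons as the length, the order was related but not the same (Spearman rho 0.77 over the 73 members, which share libraries) and the ratio of the highest to the lowest member was 90.9 in place of 31.0. Per kb, the median large-subunit gene had 38.3 and 44.1 CPM in the HT29 LPS and control libraries and 37.4 and 35.9 CPM in those of HCT116. The median small-subunit gene had 32.8 and 32.4 CPM per kb in HT29 and 24.3 and 27.6 CPM per kb in HCT116.

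**Figure D1:**
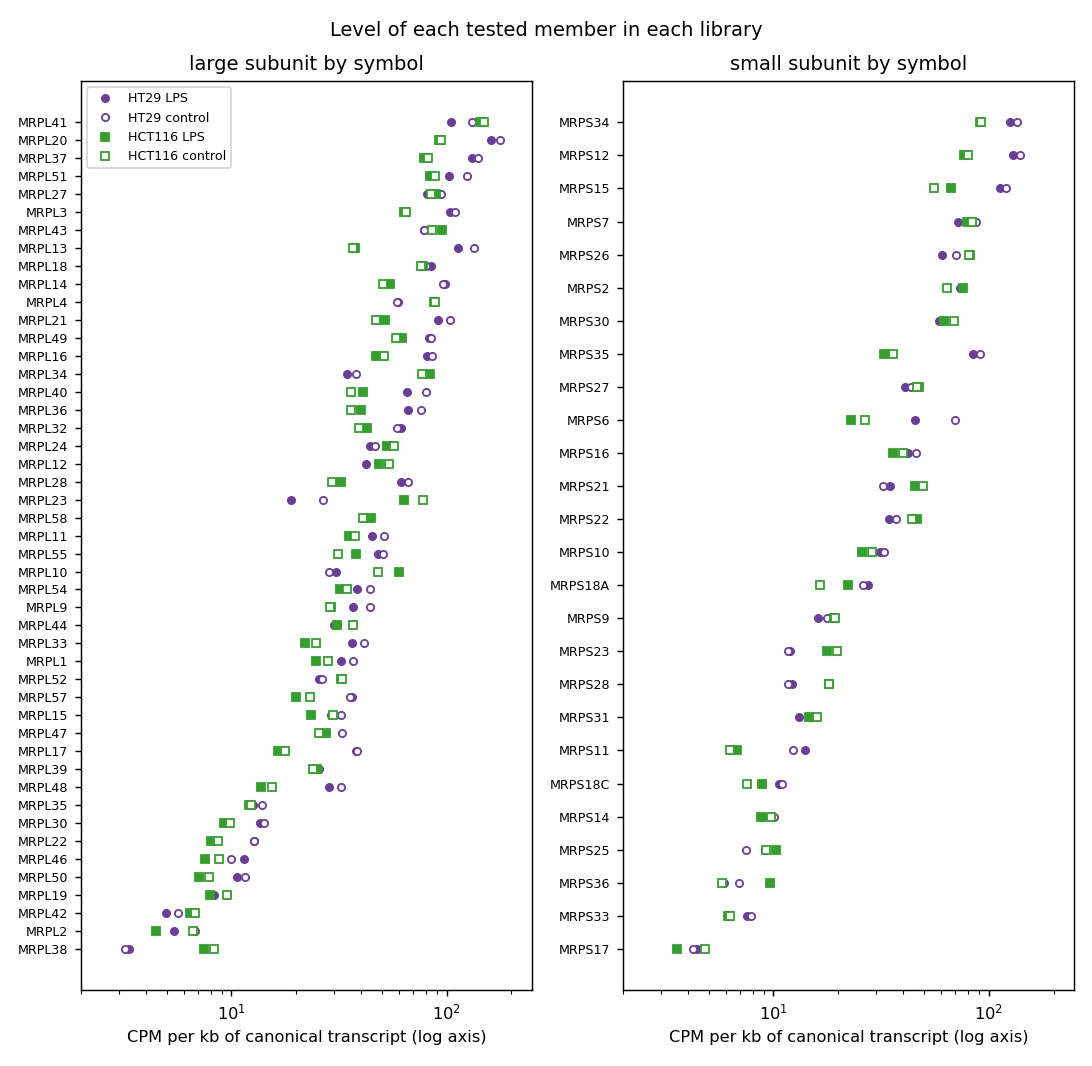
Level of each of the 73 tested members in each library, in TMM-scaled CPM per kb of canonical transcript on a log axis, with large-subunit genes on the left and small-subunit genes on the right, ordered by mean level. Filled symbols are LPS libraries and open symbols control libraries. MRPL41 and MRPS34 stand highest in their panels, and MRPL38 and MRPS17 lowest.

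In HT29, the members were on the whole slightly lower in the LPS library than in the control library. Their median log2 ratio was -0.10 against -0.0038 over the 13073 genes measured, and 55 of the 73 members had a ratio under 0 (75.3%), against 50.9% of all genes. The exact 95% counting interval lay below 0 for 32 members (43.8%), against 17.9% of all genes, and above 0 for 2 members, MRPS25 and MRPS11 (2.74%), against 16.5%. The sizes were small. No member was above 0.58, which is a 1.5-fold change (3.35% of all genes were), and 1 member, MRPS6, was below -0.58 (2.49% of all genes were). Since members have more counts than the typical gene, their intervals are narrower. Each condition was sequenced once in a line, so no ratio has a replicate behind it, and the intervals cover counting error only, as reads without molecular identifiers are not independent molecules.

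MRPS6, a small-subunit protein with a bacterial counterpart, had the lowest ratio. It had 847 counts in the HT29 LPS library, against 1181 in the HT29 control library, a log2 ratio of -0.61 (95% interval -0.74 to -0.49). MRPL23, a protein at the rim of the exit tunnel, had 254 and 326 counts (log2 ratio -0.49, -0.74 to -0.25), and carries a copy on an alternate contig. For MRPL12, the stalk protein that also binds the mitochondrial RNA polymerase, the counts were 852 with LPS and 986 in the control (-0.34, -0.48 to -0.21). It shares 69.5% of its exon bases with an unnamed protein-coding gene on the same strand, so its counts are uncertain.

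The next lowest were MRPL2, near the peptidyl transferase centre, with 131 counts with LPS and 150 in the control (-0.33, -0.68 to 0.02), and MRPL41, with 1219 and 1383 counts (-0.32, -0.43 to -0.20). MRPL47 had 717 and 802 counts (-0.30, -0.44 to -0.15). Except for MRPL2, the intervals of these 6 members lay below 0.

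At the other end, MRPS25 had 833 counts in the HT29 LPS library and 622 in the control library (0.29, 0.14 to 0.44). Of its exon bases 45.9% are shared with other genes, the largest overlap being with NR2C2 on the opposite strand. MRPS11 had 952 and 759 counts (0.19, 0.05 to 0.33). MRPL46, whose start lies beside that of MRPS11 on the opposite strand, had 225 and 179 counts (0.19, -0.09 to 0.49). MRPL10, the base of the stalk, had 1074 and 902 counts (0.12, -0.01 to 0.25), and MRPS21 had 753 and 635 counts (0.11, -0.04 to 0.27). MRPL58, which is also a hydrolase that frees peptides from stalled ribosomes, had 778 and 662 counts (0.10, -0.05 to 0.25). The intervals of the last 4 included 0.

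In HCT116, the members were divided more evenly. Their median log2 ratio was -0.04 against -0.00041 over the 14463 genes measured, with 44 of 73 under 0 (60.3%, against 50.1% of all genes). The counting interval lay below 0 for 16 members (21.9%, against 17.8% of all genes) and above 0 for 12 members (16.4%, against 17.2%). MRPS36 alone was above 0.58 (3.73% of all genes were), and no member was below -0.58 (2.5% of all genes were). When trends of the ratio with transcript length and GC content were removed, the medians of the lines were alike, at -0.08 in HT29 and -0.08 in HCT116. The ratios of all genes ran with length in HT29 (Spearman rho 0.18) and with GC content in HCT116 (0.23), and members are shorter than the typical gene, with a median transcript of 1224 against 3046 bases.

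MRPS36, which carries a ribosomal name but is a component of the 2-oxoglutarate dehydrogenase complex, had 260 counts in the HCT116 LPS library and 171 in the HCT116 control library, a log2 ratio of 0.73 (0.45 to 1.02). In HT29 it had 155 counts with LPS and 165 in the control (-0.22, -0.55 to 0.10). Its transcript has a copy on an alternate contig (99.9% identity), and the part of that copy was not tested.

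MRPS18A, a paralogue of MRPS18B and MRPS18C that sits on the large subunit despite its name, had 531 and 431 counts in the HCT116 LPS and control libraries (0.43, 0.25 to 0.62) and 640 and 551 in those of HT29 (0.08, -0.09 to 0.25). It shares 50.9% of its exon bases with RSPH9 on the opposite strand. MRPS18C had 280 and 263 counts in HCT116 (0.22, -0.03 to 0.47) and 329 and 308 counts in HT29 (-0.04, -0.27 to 0.19). Of its exon bases 40.2% are shared with ABRAXAS1 on the opposite strand. MRPS18B had no counts. The intervals of MRPS18A in the 2 lines overlapped slightly, reaching up to 0.248 in HT29 and down to 0.245 in HCT116. No test set the lines against each other.

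MRPL10 was higher in the HCT116 LPS library, with 2145 and 1891 counts (0.31, 0.22 to 0.40). MRPL55 had 577 counts in the HCT116 LPS library and 516 in the control library (0.29, 0.12 to 0.47), MRPS15 had 1305 and 1186 counts (0.27, 0.15 to 0.38) and MRPS2 had 2271 and 2096 counts (0.25, 0.16 to 0.33). These 4 intervals lay above 0.

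Lowest in HCT116 was MRPL2, with 111 counts with LPS and 181 in the control (-0.57, -0.93 to -0.23). It was followed by MRPS17, with 131 and 193 counts (-0.42, -0.76 to -0.10), and MRPL15, with 833 and 1155 counts (-0.34, -0.47 to -0.21). MRPL23 had 875 and 1171 counts (-0.29, -0.42 to -0.16), MRPL19 had 1277 and 1684 counts (-0.27, -0.37 to -0.16) and MRPL44 had 1068 and 1392 counts (-0.25, -0.37 to -0.14). MRPL44 belongs to a family of double-stranded RNA nucleases. All 6 intervals lay below 0, and MRPL2 and MRPL23 were among the 6 lowest in both lines.

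**Figure D2:**
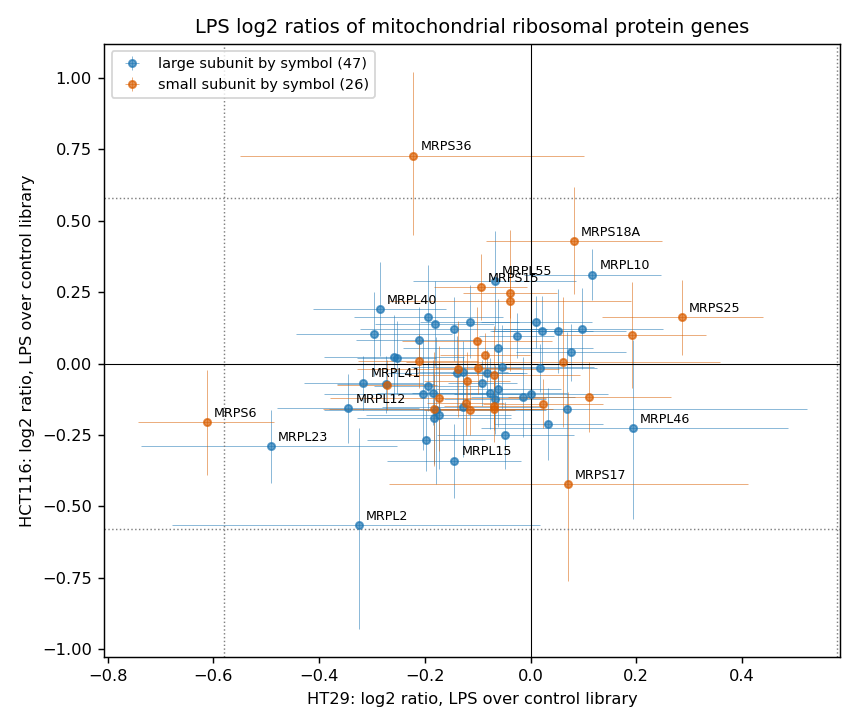
Log2 ratio of the LPS over the control library for the 73 measured members, with HT29 on the x axis and HCT116 on the y axis, and bars for the 95% counting intervals. Dotted lines mark 0.58 and -0.58, which only MRPS6 passes in HT29 and only MRPS36 passes in HCT116, and 36 of the 73 points lie below 0 on both axes.

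The signs of the 2 lines were also counted together. A ratio under 0 in both lines was found for 36 of 73 members (49.3%), against 29.4% of the 12063 genes measured in both, 10 members were above 0 in both, 19 were under 0 in HT29 and above 0 in HCT116, and 8 the reverse. Since 75.3% and 60.3% of the members were under 0 in HT29 and HCT116 taken singly, the joint share is not read as likeness of the lines. Counting intervals on opposite sides of 0 were found for 3 of 73 members (4.11%), against 4.47% of all genes measured in both lines, and all 3 were below 0 in HT29 and above 0 in HCT116 (2.11% of all genes were). Across the 73 members the ratios of the 2 lines were weakly related (Spearman rho 0.18, against 0.14 over all genes). In the test of LPS over both lines, with the line as a block and thus 1 residual degree of freedom, the quasi-likelihood test of edgeR (Benjamini-Hochberg) called 0 of 73 members (0.11% of the 14523 genes were called higher and 0.0757% lower). At an unadjusted p under 0.05 there were 10 members (13.7%, against 7.37% of all genes), 8 of them lower with LPS (3.78% of all genes were lower at that p), and DESeq2 likewise called 0 members, with 6 under an unadjusted p of 0.05. The smallest adjusted p belonged to MRPS6, which was lower with LPS in both lines with a log2 fold change of -0.42 ± 0.11 (SE) and an adjusted p of 0.219. That p was 0.0436 with a minimum of 5 CPM and 0.0299 with no filter, and up to 0.606 (by DESeq2) under the other alternatives that kept MRPS6 and the block, so the call depends on the filter. MRPL23 (-0.38) and MRPL19 (-0.23) followed, with adjusted p of 0.346 and 0.388.

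The LPS ratios were also taken by subunit, with no test of the difference between large and small. In HT29 the median log2 ratio was -0.13 for 47 large-subunit genes, 36 of them under 0, and -0.09 for 26 small-subunit genes, 19 of them under 0. In HCT116 the medians were -0.07, with 29 large-subunit genes under 0, and -0.03, with 15 small-subunit genes under 0. The counting interval in HT29 lay below 0 for 23 of 47 large-subunit genes (48.9%) and 9 of 26 small-subunit genes (34.6%), and above 0 for 0 and 2 genes. Over all genes measured in HT29 it lay below 0 for 17.9% and above 0 for 16.5%. In HCT116 it lay below 0 for 9 large-subunit genes (19.1%) and 7 small-subunit genes (26.9%), and above 0 for 7 and 5 genes. The shares over all genes there were 17.8% below and 17.2% above. Summed over genes, the ratio of large-subunit to small-subunit CPM was 1.83 and 1.84 in the HT29 LPS and control libraries and 1.68 and 1.68 in those of HCT116. Counting MRPS30 and MRPS18A, both large-subunit proteins by their current names, with the large subunit and leaving MRPS36 out moved the medians little. MRPS30 itself had 1925 and 1841 counts in the HT29 LPS and control libraries (log2 ratio -0.07) and 2096 and 2545 in those of HCT116 (-0.15). Without the members that share exon bases or have a copy, 34 remained, and the order of the subunits turned in both lines, with -0.07 for the large and -0.08 for the small subunit in HT29 and -0.02 and -0.12 in HCT116. It also turned in HCT116 with length and GC trends removed (-0.07 and -0.09).

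The systems around the mitoribosome gave the setting of these ratios. The messenger RNAs that it translates were higher in the LPS libraries: all 13 messenger RNAs of the mitochondrial genome had ratios above 0 in both lines, with a median of 0.21 in HT29 and 0.49 in HCT116, and edgeR called 3 of them higher over both lines, MT-ND4L (0.41), MT-ND5 (0.43) and MT-CYB (0.51), with adjusted p of 0.0134, 0.025 and 0.0383. Summed CPM of those 13 stood at 42010 and 36670 in the HT29 LPS and control libraries and 63570 and 42800 in those of HCT116. Summed CPM of the 78 members stood at 4507 and 4854 in the HT29 LPS and control libraries and 3799 and 3849 in those of HCT116. The members' counts therefore amounted to 10.7% and 13.2% of those of the mitochondrial messenger RNAs in the HT29 LPS and control libraries and to 5.98% and 8.99% in those of HCT116. This shift in what the libraries hold was measured in 1 library per condition, and its part in the ratios of the members was not tested.

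Of the 5 mitoribosome proteins without an MRP name, 4 were under 0 in HT29 (median -0.13) and 4 in HCT116 (median -0.16). In HT29 the log2 ratio was -0.31 for GADD45GIP1, -0.26 for CHCHD1 and -0.13 for AURKAIP1, and in HCT116 it was -0.23, -0.16 and -0.25. Cytosolic ribosomal proteins had medians of -0.08 in HT29, with 59 of 82 under 0, and -0.01 in HCT116, with 45 of 83 under 0. Nuclear subunits of the respiratory chain had medians of -0.12, with 56 of 75 under 0, and -0.03, with 47 of 75 under 0. The low medians in HT29 were thus found in these sets as well, and no test of the members against them was made.

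Factors that build or serve the mitoribosome had medians within 0.05 of 0 in HT29, whereas in HCT116 assembly factors and regulators lay farther from 0 than the members. The 28 measured assembly factors had medians of -0.04 in HT29 and 0.05 in HCT116, the 17 translation factors -0.03 and -0.03, and the 21 mitochondrial aminoacyl-tRNA synthetases 0.0013 and 0.0022. The 15 regulators of mitochondrial gene expression had medians of 0.05 and -0.07, and the 13 protein quality control genes -0.03 and -0.03. Over both lines, 2 of these genes, both translation factors, had an unadjusted p under 0.05 by edgeR. TFAM, which packages mitochondrial DNA, had a log2 ratio of -0.02 in HT29 (95% counting interval -0.11 to 0.07) and -0.25 in HCT116 (-0.37 to -0.13). TEFM, the elongation factor of mitochondrial transcription, had -0.38 in HT29 (-0.69 to -0.08) and 0.05 in HCT116 (-0.26 to 0.36).

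**Figure D3:**
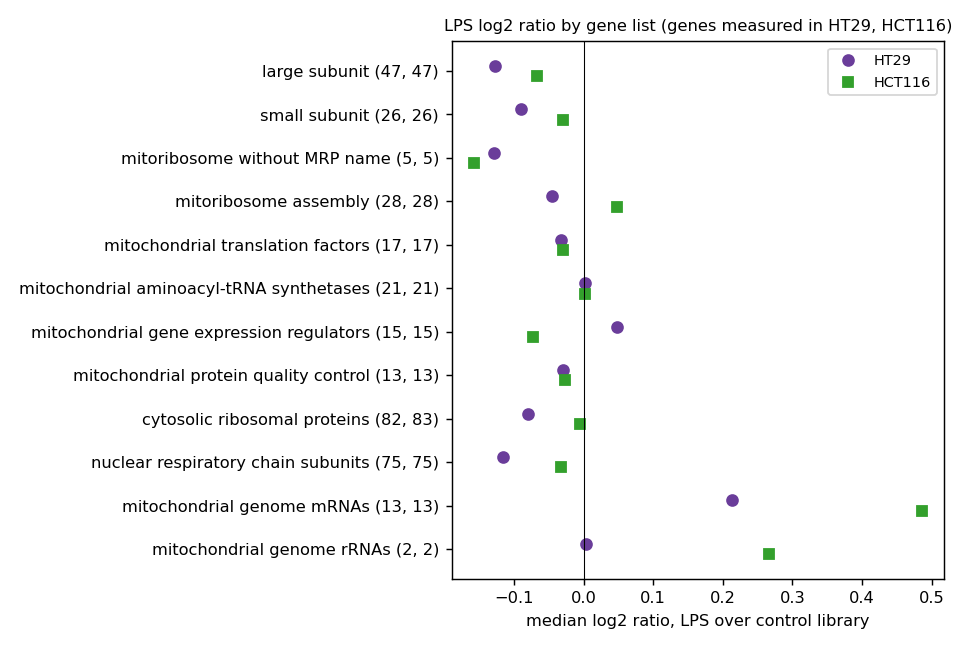
Median log2 ratio of the LPS over the control library for 12 gene lists, with circles for HT29 and squares for HCT116 and the genes measured in each line in parentheses. Both subunits lie left of 0 in both lines, beside the cytosolic ribosomal proteins and the nuclear respiratory chain subunits, and the mitochondrial messenger RNAs lie right of 0 at 0.21 and 0.49.

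The lines themselves differed far more than the conditions. In the comparison of HT29 with HCT116, with LPS as a block, edgeR's quasi-likelihood test called 37 of 73 members higher in HT29 and 16 lower, against 36.8% and 39.5% of all 14523 genes, and did not call 20. The share called higher among the members was 50.7% and that called lower 21.9%. Their median log2 fold change was 0.22, against -0.05 over all genes. With library size alone as the scaling, the split was 31 higher and 22 lower, as that scaling moved the median of all genes to -0.18, and relative to the median of all genes the members' median was 0.26 under both. In these fits the LPS and control cultures of a line stand in for its replicates.

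Of the large subunit, 26 of 47 were called higher in HT29 and 10 lower (median 0.39). Of the small subunit, 11 of 26 were called higher and 6 lower (median 0.04). Over all 14523 genes, 36.8% were called higher and 39.5% lower (median -0.05). The difference between the subunits was not tested. Without the HT29 LPS library the calls were 37 higher and 10 lower. In the control libraries alone the median log2 ratio of HT29 over HCT116 was 0.24, and in the LPS libraries alone 0.27.

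MRPL13, a large-subunit protein encoded on chromosome 8, had the largest excess in HT29. It had 142 and 169 CPM in the HT29 LPS and control libraries, against 47.1 and 46.4 CPM in those of HCT116, a log2 fold change of 1.73 ± 0.08 (SE, adjusted p 7.8e-13 by edgeR). MRPS35, a mitochondria-specific small-subunit protein, had 154 and 167 CPM in the HT29 libraries and 59.9 and 66.0 CPM in the HCT116 libraries (1.35 ± 0.07, edgeR adjusted p 3.9e-12). MRPS6 had 42.4 and 64.9 CPM in the HT29 LPS and control libraries and 21.4 and 24.7 CPM in those of HCT116 (1.20 ± 0.11, edgeR adjusted p 2.9e-08). In each case both HT29 libraries lay above both HCT116 libraries.

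The other 5 of the 8 largest excesses were MRPL17, with 87.8 and 88.6 CPM in HT29 and 37.9 and 41.1 CPM in HCT116 (1.16), MRPL48, with 42.7 and 48.2 CPM in HT29 and 20.5 and 23.2 CPM in HCT116 (1.06), and MRPL28, with 93.2 and 101 CPM in HT29 and 49.3 and 44.5 CPM in HCT116 (1.05), besides MRPS11 and MRPL21. MRPS11 had 47.6 and 41.7 CPM in the HT29 LPS and control libraries and 23.0 and 21.4 CPM in those of HCT116 (1.01). MRPL21 had 63.1 and 71.6 CPM in HT29 and 35.7 and 32.4 CPM in HCT116 (0.98). MRPL17 and MRPL28 have bacterial counterparts, and MRPL48 belongs to the central protuberance of the large subunit.

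MRPL23 had the largest deficit in HT29, with 12.7 and 17.9 CPM in the HT29 LPS and control libraries, against 42.6 and 52.1 CPM in those of HCT116 (-1.64 ± 0.12, edgeR adjusted p 5.2e-10). It carries a copy on an alternate contig (99.85% identity), so its counts are uncertain. MRPL38, of the central protuberance, had 4.55 and 4.34 CPM in HT29 and 10.1 and 11.3 CPM in HCT116 (-1.26). Of its exon bases 45.1% are shared with other genes, the largest overlap being with a gene on the same strand. MRPL34 had 26.2 and 29.0 CPM in HT29 and 63.8 and 58.7 CPM in HCT116 (-1.15). The range of HT29 lay below that of HCT116 for all 3.

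MRPL10 had 53.7 and 49.5 CPM in the HT29 LPS and control libraries and 105 and 84.2 CPM in those of HCT116 (-0.86), and MRPS23 had 66.6 and 65.5 CPM in HT29 and 99.9 and 110 CPM in HCT116 (-0.67). MRPS28 had 10.3 and 9.83 CPM in HT29 and 15.2 and 15.1 CPM in HCT116 (-0.59), and shares 35.8% of its exon bases with a protein-coding gene on the same strand. MRPL4, which lines the exit tunnel, had 72.2 and 71.4 CPM in HT29 and 106 and 107 CPM in HCT116 (-0.57), and MRPS21 had 37.7 and 34.9 CPM in HT29 and 49.5 and 53.7 CPM in HCT116 (-0.51). These differences were below 1 on the log2 scale, while 7 members were called higher by more than 1 and 3 were called lower by more than 1.

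**Figure D4:**
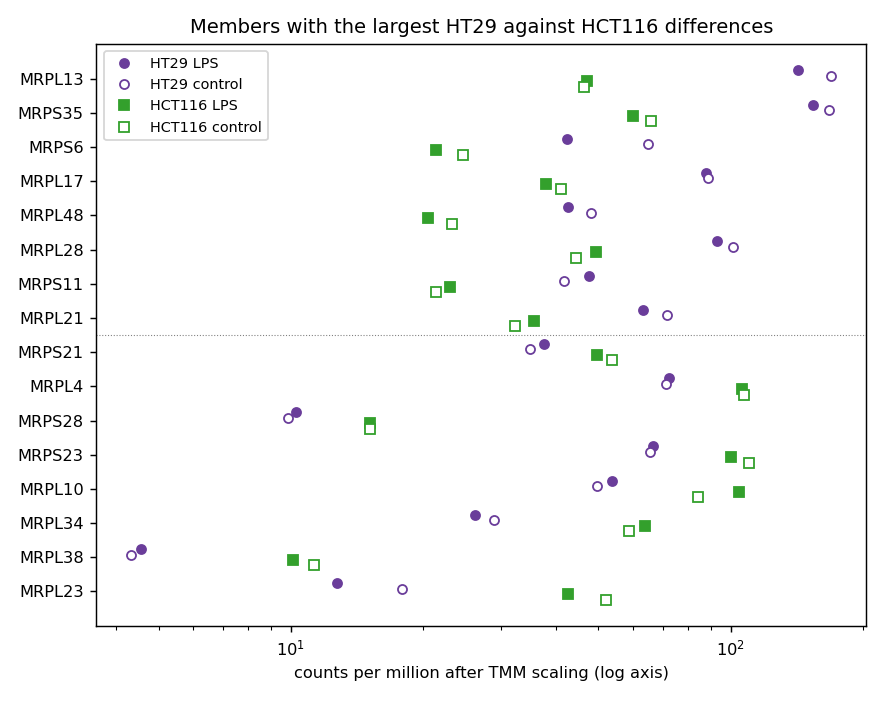
TMM-scaled CPM (log axis) of the 8 members with the largest excess in HT29 (upper rows) and the 8 with the largest deficit (lower rows), with circles for HT29, squares for HCT116, filled symbols for LPS and open symbols for control libraries. Circles lie right of squares in every upper row and left of squares in every lower row.

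The line difference of each member was set beside that of its neighbours on the chromosome. For each member the median log2 fold change of the 10 nearest tested genes on each side that are no members was taken. It had the sign of the member for 39 of the 53 members called (73.6%), 27 higher and 12 lower, against 63.7% of the 11021 other called genes. The Spearman rho was 0.51 over the 73 members and 0.28 over all other tested genes (genes on the same chromosome can share neighbours), and no test of the members against other genes was made. MRPL13 stood at 1.73 beside neighbours at 1.88, MRPS35 at 1.35 beside 0.97, MRPL28 at 1.05 beside 1.23, MRPL34 at -1.15 beside -1.08 and MRPL4 at -0.57 beside -0.87. MRPL23 and MRPS6 were the exceptions among the largest differences. MRPL23, whose counts are uncertain because of its copy, was at -1.64 in a stretch at 1.97, and MRPS6 at 1.20 in a stretch at -0.33.

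By chromosome, all 6 tested members on chromosome 11 other than MRPL23, namely MRPL11, MRPL16, MRPL17, MRPL21, MRPL48 and MRPL49, were called higher in HT29, and the 835 other tested genes of that chromosome had a median of 0.40. On chromosome 17, no member was called higher and 3 of 7 were called lower, with the other 902 genes at a median of -0.48. On chromosome 1, 5 of 8 were called higher and 2 lower beside a median of -0.02, and on chromosome 8, 2 of 3 (MRPL13 and MRPL15) were called higher and 1 lower (members' median 0.21) beside 498 other genes at a median of -0.60. Copy number was not measured here.

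**Figure D5:**
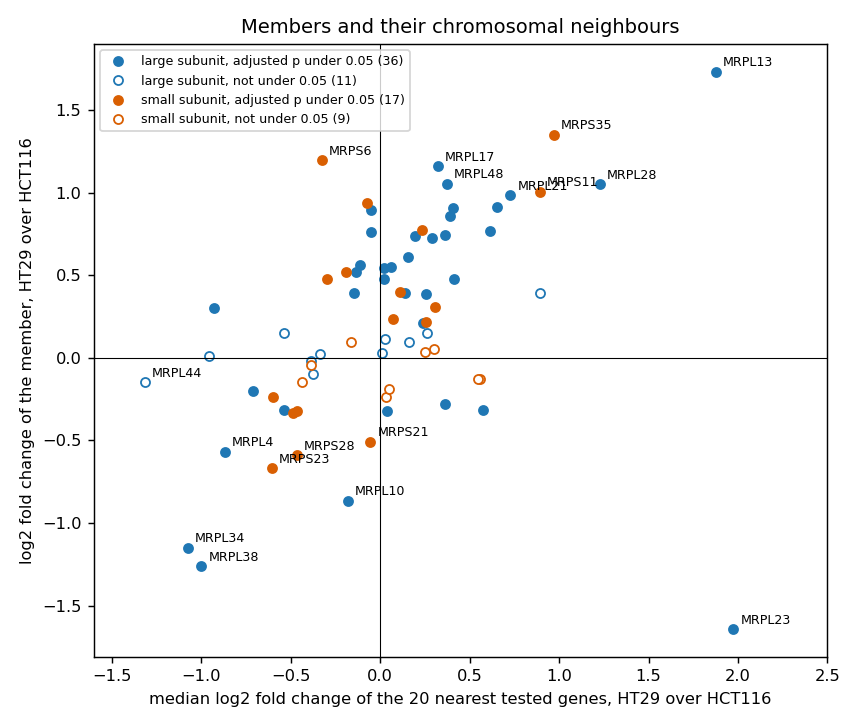
Log2 fold change of HT29 over HCT116 for the 73 tested members (y axis) against the median of the 20 tested genes nearest to each (x axis), with filled points for adjusted p under 0.05. 39 of the 53 called points lie in the upper right or lower left field, and MRPL23 lies farthest into the lower right.

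The differences were also set against the promoter letters, with no test. Members with the ETS letters had a median LPS log2 ratio of -0.10 in HT29 and -0.04 in HCT116 over 28 tested genes, against -0.08 and -0.07 over the 36 without. Those with the YY1 letters, 11 tested genes, had -0.05 in HT29 and -0.11 in HCT116, against -0.10 and -0.04 over the 53 without. Between the lines the medians were 0.31 with and 0.24 without the ETS letters, and 0.39 with and 0.30 without the YY1 letters. The NRF1 core was in 5 tested members, with a median line difference of 0.55 against 0.23 over the 59 without. Their median LPS log2 ratio was -0.01 in HT29 and -0.01 in HCT116, against -0.10 and -0.07 over those without.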

How the data were processed

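Total RNA of HT29 and HCT116 cells, with and without LPS, was sequenced as 4 libraries. The authors deposited raw counts for each gene, and these counts were used. Per the methods and the submitters' processing notes, reads were cleaned (cutadapt 1.9 and Trimmomatic 0.39 are named), aligned to hg38 with HISAT2 2.1.0 and counted with featureCounts 2.0.1. For the GENCODE release and the options for strand and reads with several matches, the sources used here name none. Symbols were taken from GENCODE 44 by gene identifier, which named 61399 of 61544 genes.

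Ratios within a line are log2 of TMM-scaled CPM with a prior count of 2, with exact Clopper-Pearson 95% intervals. They are given for genes averaging at least 1 CPM before TMM scaling. Tests over 4 libraries used edgeR 4.0.16 (R 4.3.3), quasi-likelihood, with Benjamini-Hochberg adjustment and a threshold of 0.05. The cultures of a line are not labelled as replicates, so p-values measure only the spread between these libraries. DESeq2 1.42.0, other scalings, filters and prior counts, each library left out, and removal of loess trends were tried. Scripts were tested on simulated data. Copies (98% identity over 50% of the length) came from minimap2 2.31. Members given with values are those with the 6 highest and 6 lowest LPS ratios per line, the 8 largest line differences each way, the 5 highest and lowest levels, those under the filter and those with a second role. Members and lists were chosen with earlier results of these data known.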

Additional observations from a re-analysis of the deposited data

Results flagged for a closer look

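MRPL28, MRPL40 and MRPS15 had counting intervals on opposite sides of 0 in the 2 lines, below 0 in HT29 and above 0 in HCT116. These were 3 of 73 members (4.11%), against 4.47% of the 12063 genes measured in both lines with intervals on opposite sides of 0 either way and 2.11% with this pattern. The upper bounds in HT29 were -0.0068 for MRPS15, -0.021 for MRPL28 and -0.16 for MRPL40. The lower bounds in HCT116 were 0.15 for MRPS15, 0.020 for MRPL28 and 0.028 for MRPL40. Several of these lie close to 0, and the intervals were computed with TMM scaling only. Each ratio rests on 1 library per condition, and no test of the line difference was possible. MRPL40, of the central protuberance of the large subunit, had 974 and 1082 counts in the HT29 LPS and control libraries (log2 ratio -0.29) and 626 and 600 in those of HCT116 (0.19), so that the ratio in HT29 minus that in HCT116 was -0.48. For MRPS15 the counts were 2147 and 2088 in the HT29 LPS and control libraries (-0.09) and 1305 and 1186 in those of HCT116 (0.27), a difference of -0.36. MRPL28 had 1863 and 1838 counts in the HT29 LPS and control libraries (-0.11) and 1011 and 999 in those of HCT116 (0.15), a difference of -0.26. No member had the opposite pattern.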

How the results depend on the processing

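Of the members named with an LPS ratio, MRPS18C in HT29 was the 1 whose sign changed under an alternative run, at -0.04 as reported and 0.04 with length and GC trends removed, and its interval included 0. In HT29, the median LPS log2 ratio of the members (-0.0990) was -0.0737 without members that share exon bases or have a copy and -0.0774 with length and GC trends removed, with large-subunit medians of -0.0726 and -0.0987 and a small-subunit median of -0.0753 with the trends removed. Those 34 members held 25 under 0 in HT29 and 21 in HCT116. The count below -0.58 in HT29 (1) was 2 with no filter, 0 without the sharing members and 0 at a threshold of 1. In HCT116, the median (-0.0392) was -0.0665 with library size alone, -0.0642 without the sharing members and -0.0775 with trends removed. There the large-subunit median was -0.0949 with library size alone and -0.0218 without the sharing members, and the small-subunit median was -0.0571 with library size alone, -0.119 without the sharing members and -0.0876 with trends removed. Below -0.58 in HCT116 there was 1 member (0 as reported) with library size alone, with no filter and with trends removed, and above 0.58 there were 0 (1 as reported) without the sharing members and at a threshold of 1. For LPS over both lines 1 member was called lower (0 as reported) with no filter and with a minimum of 5 CPM. Between the lines, 20 higher and 7 lower were called among the 34 members left, with a median log2 fold change of 0.31. Over all tested members the median was 0.24 in control and 0.27 in LPS libraries. Leaving out 1 library at a time gave 30 to 37 higher and 10 to 16 lower calls. The ratio of the highest to the lowest level was 90.9 with the union of exons. The causes were not tested beyond the smaller number of members in some settings. The cell line was the pairing in the test of LPS over both lines, and without it 0 members were called, with 0 under an unadjusted p of 0.05. Depth limits members such as MRPL2 and MRPL38, with 79 to 253 counts a library.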
